A study of Homo sapiens with 6 samples.

Results

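The basement membrane genes described here are the 6 collagen IV genes (COL4A1 to COL4A6) and 4 laminin genes (LAMA5, LAMB1, LAMB2 and LAMC1), chosen by gene name from a table of 20745 genes. All 10 genes were found in it. RNA was sequenced from AB 8/13 cells, a conditionally immortalized human podocyte line that divides at a permissive temperature and differentiates at a restrictive one. There were 3 control cultures and 3 cultures treated with levamisole at 1 µM for 24 h. Levamisole is a drug against worms that is also given in nephrotic syndrome to limit the use of steroids. Within each group, the 3 cultures came from 3 different passages of this 1 line. Per the methods of the study, the cells were differentiated at the restrictive temperature before treatment. The sample labels place both groups in serum-free medium, while the methods of the study place the controls in medium with serum. The value used throughout is the authors' base mean, which is the mean of the normalized read counts of a gene over the libraries of their analysis. It pools treated and control cultures. Levamisole and control were not compared here, and for a gene whose level differs between them the pooled level, its rank and its ratio to other genes may describe neither group.

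Basement membranes are sheets of matrix that underlie epithelia and surround capillaries. Collagen IV chains assemble in threes, and the trimers join into a network. Most basement membranes use the α1 and α2 chains, whereas the mature glomerular basement membrane is built mainly from the α3, α4 and α5 chains, which podocytes secrete and which are altered in Alport syndrome. Laminins are heterotrimers of an α, a β and a γ chain. The glomerular basement membrane is known for laminin with the α5, β2 and γ1 chains, in which β2 replaces the β1 chain of development, and loss of LAMB2 causes Pierson syndrome with nephrotic syndrome.

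The levels of the 10 genes covered a wide range. LAMC1, which encodes the γ1 chain, had the highest base mean (5805) and COL4A6 the lowest (7.44), a ratio of 781 on the scale as deposited. LAMC1 ranked 74 of the 20745 genes, COL4A2 ranked 110 and COL4A1 ranked 368. At the lower end, COL4A3 and COL4A6 had base means below the median of all genes (21.8). In all, 8 of the 10 genes lay above this median and 6 lay above the upper quartile (130.5). A base mean of at least 5 was found for 10 of the 10 genes and for 64.3% of all genes, and one of at least 50 for 6 of the 10 and for 39.9% of all genes. Together the 10 genes made up 0.201% of the summed base means, with 0.0979% from collagen IV and 0.103% from the laminin genes.

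**Figure D1:**
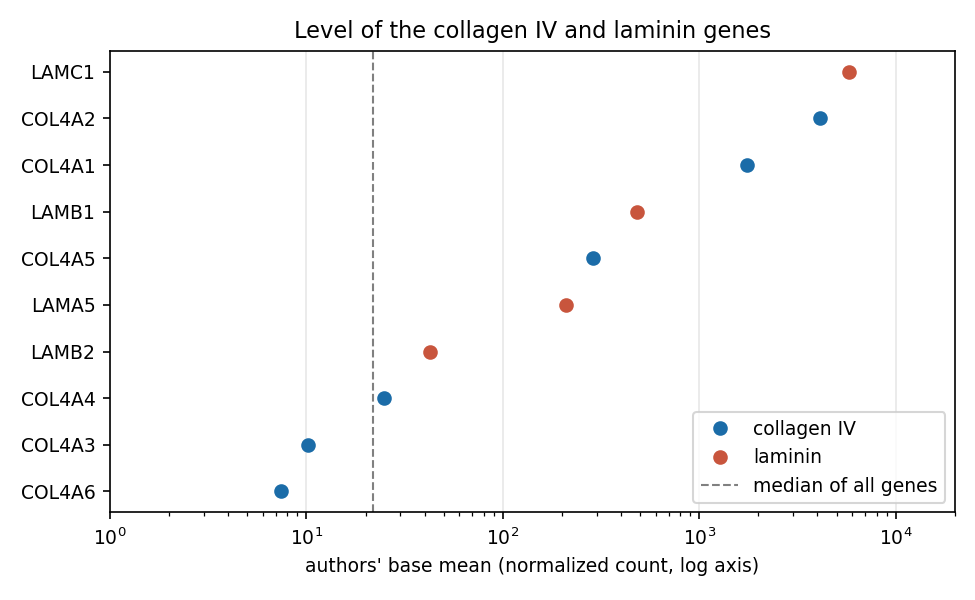
Base mean of each of the 10 genes (normalized count, log axis), with 1 point per gene and no error bar, since the value is the authors' mean over libraries. LAMC1, COL4A2 and COL4A1 lie to the right, and COL4A3 and COL4A6 lie to the left of the dashed median of all genes (21.8).

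Reads of this CEL-seq protocol start from the poly(A) tail and fall mostly near the 3′ end of a transcript, and counts from such protocols are not expected to grow with transcript length. Levels between genes were compared on the scale as deposited, per kb of exonic length of the longest transcript and per kb of coding length. From high to low, the order was LAMC1, COL4A2, COL4A1, LAMB1, COL4A5, LAMA5, LAMB2, COL4A4, COL4A3 and COL4A6 on each of these scales. The spread between cultures is not known from a pooled mean, so it cannot be said which neighbours in this order differ by more than replicate error.

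**Figure D2:**
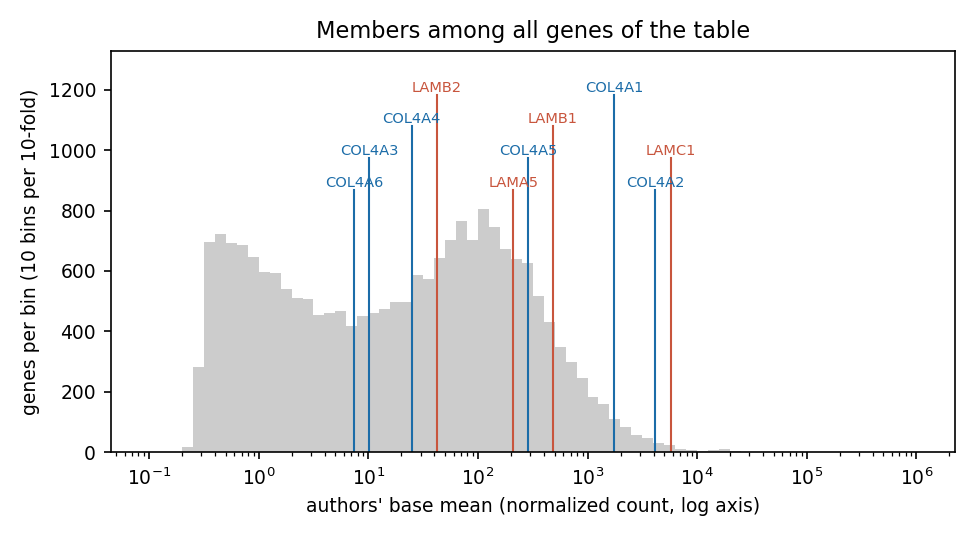
Histogram of the base means of all 20745 genes (log axis, 10 bins per 10-fold), with a line for each collagen IV gene (blue) and laminin gene (red). COL4A3 and COL4A6 lie near the dip between the genes of low and high base mean, while LAMC1, COL4A2 and COL4A1 lie in the upper tail.

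Of the collagen IV genes, COL4A1 and COL4A2, which encode the widespread α1 and α2 chains, dominated. COL4A2 (ENSG00000134871, chromosome 13 of GRCh38, 110305812 to 110513209, plus strand) had a base mean of 4122 and a share of 66.3% of the collagen IV sum. COL4A1 (ENSG00000187498, chromosome 13, 110148963 to 110307157, minus strand) had a base mean of 1761 and a share of 28.3%. Both genes together held 94.7% of the summed base means of the 6 collagen IV genes. Their share was 94.9% per kb of exonic length and 94.7% per kb of coding length.

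The chains of the glomerular network were found at unequal levels. COL4A5 (ENSG00000188153, chromosome X, 108439838 to 108697545, plus strand), which encodes the α5 chain, had a base mean of 287 and a share of 4.62% of the collagen IV sum. COL4A4 (ENSG00000081052, chromosome 2, 227002714 to 227164453, minus strand), for the α4 chain, had a base mean of 24.9 and a share of 0.401%, or 0.261% per kb of exonic length and 0.403% per kb of coding length. COL4A3 (ENSG00000169031, chromosome 2, 227164624 to 227314792, plus strand), for the α3 chain, had a base mean of 10.1 and a share of 0.163%. COL4A3 and COL4A4 summed to 0.564% of collagen IV, below COL4A5 alone, and this order was the same on the other scales (0.392% against 4.59% per kb of exonic length, and 0.569% against 4.65% per kb of coding length). COL4A6 (ENSG00000197565, chromosome X, 108155607 to 108439497, minus strand), for the α6 chain found with α5 in other basement membranes such as that of Bowman's capsule, had a base mean of 7.44 and a share of 0.120%.

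**Figure D3:**
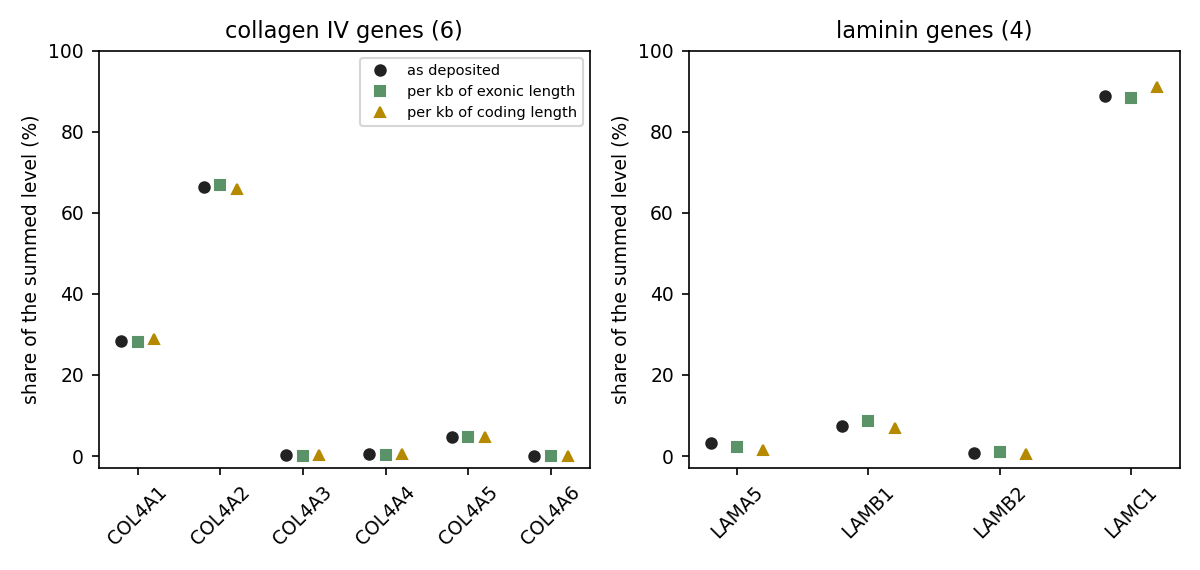
Share of each gene in the summed level of the collagen IV genes (left) and of the 4 laminin genes (right), in percent, as deposited, per kb of exonic length and per kb of coding length. COL4A2 and LAMC1 hold the highest share of their family on each of the scales.

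The collagen IV genes lie in pairs, head to head and on opposite strands, so that both genes of a pair start from one stretch of DNA. The stretches are shown because they stand between genes whose pooled base means were unequal, although replicate error is not known for these values. They are given on the plus strand, 5′ to 3′, from the RefSeq promoter sequences of GRCh38.p14, with capitals for a GC box (GGGCGG, or CCGCCC on the other strand) and a CCAAT box (CCAAT, or ATTGG). The first lies at chr13:110307158-110307257, the second at chr2:227164454-227164623 and the third at chrX:108439588-108439837.
COL4A1 and COL4A2: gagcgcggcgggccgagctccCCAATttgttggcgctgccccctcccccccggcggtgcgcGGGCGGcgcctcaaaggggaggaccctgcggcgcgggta
COL4A4 and COL4A3: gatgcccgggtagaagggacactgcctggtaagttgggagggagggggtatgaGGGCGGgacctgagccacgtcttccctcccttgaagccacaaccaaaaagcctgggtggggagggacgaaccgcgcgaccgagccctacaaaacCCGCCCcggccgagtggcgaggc
COL4A6 and COL4A5: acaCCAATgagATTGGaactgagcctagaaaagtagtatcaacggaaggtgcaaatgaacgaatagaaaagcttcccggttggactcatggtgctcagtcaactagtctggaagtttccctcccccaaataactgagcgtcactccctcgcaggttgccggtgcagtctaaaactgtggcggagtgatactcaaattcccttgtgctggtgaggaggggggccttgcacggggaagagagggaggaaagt

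The stretch of the COL4A1 and COL4A2 pair begins next to the start of COL4A1 and ends before the first exon of COL4A2 at this place, although 1 transcript of COL4A2 in GENCODE 44 starts further upstream, within COL4A1. It has 100 bases, out of 126 between the start of COL4A1 and the RefSeq start of COL4A2. Of the 100 bases, 78% are G or C, and they hold 1 GC box and 1 CCAAT box. Windows of the same length before the starts of 35116 RefSeq promoters had a median of 60% G or C, and 31.3% held a GC box and 18.1% a CCAAT box on either strand. COL4A2 was 2.34 times COL4A1 in base mean, and 2.37 and 2.28 times per kb of exonic and coding length.

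The stretch between COL4A4 and COL4A3 has 170 bases with 65.9% G or C, against a median of 59.4%. It holds 2 GC boxes, as 38.3% of promoters hold at least 1 in this length, and 0 CCAAT boxes, found in 25.4% of promoters. COL4A4 was 2.46 times COL4A3 in base mean, and 1.98 and 2.43 times per kb of exonic and coding length. Both base means pool treated and control cultures, so the level of COL4A3 and this ratio may hold in neither group alone. The third stretch covers the 250 bases before COL4A5, out of 340 between both genes, with 51.2% G or C against a median of 58.0%. It holds 2 CCAAT boxes, 1 on each strand, as 32.0% of promoters hold at least 1, and 0 GC boxes, found in 42.6% of promoters. A TATA box (TATAAA, or TTTATA on the other strand) was in 0 of the 3 stretches. It was in 4.99%, 7.44% and 10.7% of promoters over 100, 170 and 250 bases. The bases next to the start of COL4A6 lie outside the third stretch and were not searched. COL4A5 was 38.6 times COL4A6 in base mean, and 39.9 and 39.0 times per kb of exonic and coding length. The pair on chromosome X was thus the most unequal of the 3 in these cells. These letters are a description of the sequence, and binding of a factor was not measured.

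Among the laminin genes, LAMC1 (ENSG00000135862, chromosome 1, 183023420 to 183145592, plus strand) held 88.8% of the sum of the 4 genes. LAMB1 (ENSG00000091136, chromosome 7, 107923799 to 108003213, minus strand), for the β1 chain, had a base mean of 481 and a share of 7.36%. LAMA5 (ENSG00000130702, chromosome 20, 62307955 to 62367312, minus strand), for the α5 chain, had a base mean of 211 and a share of 3.22%, or 2.22% per kb of exonic length and 1.44% per kb of coding length. LAMB2 (ENSG00000172037, chromosome 3, 49121114 to 49133118, minus strand), for the β2 chain of the mature glomerular basement membrane, had a base mean of 42.3 and a share of 0.647%. LAMB1 was 11.4 times LAMB2 in base mean, and 9.60 and 11.4 times per kb of exonic and coding length. The β1 chain of development was thus the more abundant transcript of the pair.

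The chains were also set beside the other laminin chains, of which 7 of 8 listed genes were in the table. A base mean of 5 or more was found for 5 of the 7, against 64.3% of all genes. LAMA4 was not analysed here. Of the 4 β genes, LAMB1 held 88.6% and LAMB2 7.80%, with LAMB3, a chain of epithelial laminin, at a base mean of 19.0 and LAMB4 at 0.590. LAMC3, a further γ chain, had a base mean of 1.87 against 5805 for LAMC1. Of the 4 α genes, LAMA5 held 38.0% and LAMA3 49.0% with a base mean of 271, and LAMA3 was above LAMA5 also per kb of exonic length (50.1% against 36.2%) and of coding length (50.4% against 35.3%). LAMA1, the early α chain of the developing glomerulus, had a base mean of 62.4 and LAMA2 one of 9.24. LAMC1 was 12.1 times LAMB1, its partner in the trimer, in base mean, and 10.3 and 13.4 times per kb of exonic and coding length.

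The other genes of the basement membrane pathway were read from lists. Of 12 further matrix components, 11 were in the table. A base mean of at least 5 was found for 10 of them and one of at least 50 for 7, against 64.3% and 39.9% of all genes. The highest were SPARC, a collagen-binding glycoprotein (3522), AGRN, the heparan sulfate proteoglycan agrin of the glomerular basement membrane (385), and TINAGL1 (305). The laminin and collagen IV linker nidogen 1 (NID1) had a base mean of 216, and nidogen 2 (NID2) one of 5.08. HSPG2, which encodes perlecan, had one of 114.

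Genes that make and crosslink collagen IV were all in the table. Base means were 5 or more for 15 of 15 and 50 or more for 12, against 64.3% and 39.9% of all genes. LOXL2, a lysyl oxidase that crosslinks collagen IV, was highest (3791), followed by PXDN (2867), the peroxidasin that forms the sulfilimine bond between trimers, and P4HB (1868), a subunit of prolyl hydroxylase. SERPINH1, the collagen chaperone HSP47, had a base mean of 262. Of 12 receptors, 10 had a base mean of at least 5 and 9 one of at least 50, against the same shares of all genes. ITGA3, the α subunit of the main laminin integrin of podocytes, had 2506, its partner CD151 2108 and ITGB1, the shared β subunit, 679.9. The collagen receptor DDR2 had 1.21 and the laminin receptor BCAM 6.65.

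**Figure D4:**
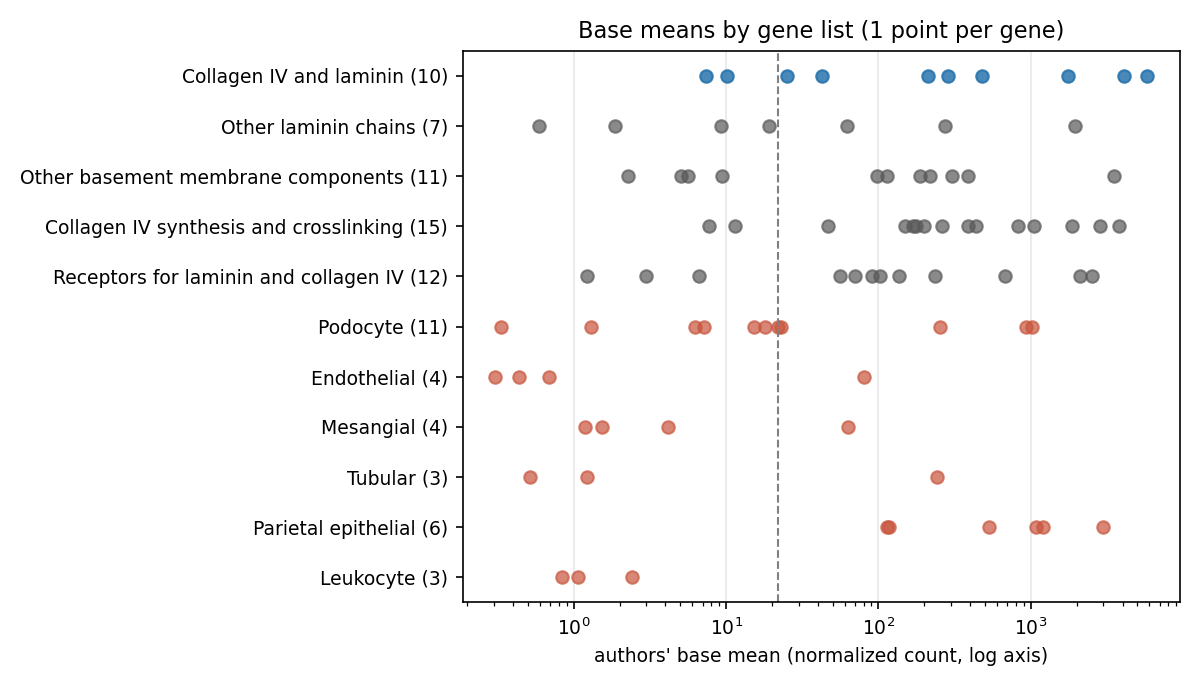
Base means (normalized count, log axis) of the 10 genes (blue), of the lists of other laminin chains, matrix components, synthesis genes and receptors (grey), and of cell type markers (red), with 1 point per gene in the table and the number of points in brackets. The parietal epithelial markers lie right of the dashed median of all genes (21.8), and the leukocyte markers lie left of it.

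The label of the cells was checked against markers. Of 14 podocyte markers, 11 were in the table (summed base mean 2288), with a base mean of 5 or more for 9 and of 50 or more for 3, against 64.3% and 39.9% of all genes. NPHS1, for nephrin of the slit diaphragm, and LMX1B, a regulator of COL4A3 and COL4A4, were not analysed here. FOXC2 (1013), CD2AP (929) and KIRREL1 (253) were the highest. The podocyte regulator WT1 (6.21) and the surface proteins PODXL (15.3) and PTPRO (0.333) had base means below the median of all genes, and SYNPO for synaptopodin (22.8) lay just above it. All 6 parietal epithelial markers had base means of at least 50, with a sum of 6004 and the highest value for CLDN1 (2965), although KRT8, KRT18 and KRT19 mark many epithelia and PAX2 and PAX8 are kidney lineage factors.

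Markers of other glomerular and kidney cells were low with single exceptions. Of 7 listed endothelial markers, 4 were in the table (sum 81.5). EHD3 had a base mean of 80.1 and CDH5, VWF and TEK had 0.306, 0.434 and 0.690. Of 6 listed mesangial markers, 4 were in the table (sum 69.8), with POSTN at 62.9 and PDGFRB at 4.14. Of 7 listed tubular markers, 3 were in the table (sum 244), with AQP1 at 243 and SLC12A3 at 0.514. Of 5 listed leukocyte markers, 3 were in the table (sum 4.29), with CD14 highest (2.40) and PTPRC at 0.832. Whether other cell types contributed to the basement membrane transcripts was not tested.

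Sequence shared with another gene can leave reads uncounted, so the 3′ ends were searched for exact matches. Copies with mismatches, sequence outside annotated transcripts and other 3′ ends of these genes were not searched. Among the 441 pieces of 60 bases, the length of the mapped read, in the last 500 bases of each of the 10 transcripts, 0 were found in a transcript of another gene in GENCODE 44. Of these last 500 bases, 0 were covered by an exon of another gene on the same strand, for each of the 10 genes.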

How the data were processed

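RNA from 3 control and 3 levamisole-treated cultures was sequenced by a modified CEL-seq method. Per the labels and the methods, the authors trimmed reads with Trim Galore 0.4.5, mapped them to GRCh38 with STAR 2.7.5a, counted them with HTSeq 0.11.0 on Ensembl release 95 and analysed them with DESeq2 1.22.0. The base mean, a signal on the scale of normalized counts, was deposited by the authors as 1 mean per gene over the libraries of their fit. How many libraries entered the fit is not given in the table. The table's log2 fold changes, standard errors, Wald statistics and p-values are the authors' own comparison and were not used, and no value per culture was used, so depth per library is unknown and no error, interval or test could be given. The planned edgeR test was therefore not run.

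Ranks, percentiles (tested on simulated data), shares and ratios were computed with Python 3.11.15 and pandas 2.3.3, and figures with matplotlib 3.10.9. Lengths, positions and 3′ ends came from GENCODE 44 on GRCh38, a later annotation than the authors', which held 20599 of the 20745 gene identifiers. Lengths are those of the longest exonic and the longest coding sequence of a gene. Named are all 10 genes and, from each list, mainly the 3 highest and those under a base mean of 1, with some others chosen after their values were seen. Results for a few listed genes are not reported here. The genes and lists were chosen with earlier results of these data known. Alternatives were the length scales, the mitochondrial genes in the denominator and base mean minimums of 1, 10 and 50.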

Additional observations from a re-analysis of the deposited data

How the results depend on the processing

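The place of each of the 10 genes in the order was the same under both length scales. The 4 ratios within gene pairs stayed within 1.5 times of their value on the deposited scale and kept their direction. The share of the 10 genes in the summed base means rose from 0.201% to 0.308% when the 22 mitochondrial genes, with 34.8% of the sum, were left out. With a minimum base mean of 50 in place of 5, 6 of the 10 genes passed. Of the 20 family shares under the length scales, 2 moved by more than 1.5 times, that of COL4A4 per kb of exonic length (0.261%) and that of LAMA5 per kb of coding length (1.44%). Percentiles of COL4A3, COL4A4, COL4A6 and LAMB2 depend on which low genes are ranked, and COL4A3 lay at percentile 42.3 of all genes and 10.3 once those under 5 were left out. No paired analysis was possible because the table gives no value per culture. For the same reason other normalizations and tools, a low-count filter in a fit and left-out replicates were not run. A base mean near 10, as for COL4A3 and COL4A6, stands for few normalized reads per library, and its counting error is not known from the pooled value.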
